A study of Mus musculus with 3 samples.

Results

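The MHC class II presentation genes described here are 7 of the 33696 genes in the feature tables, taken by name: H2-Aa, H2-Ab1 and H2-Eb1, which encode chains of the surface class II molecules, H2-DMa and H2-DMb1, which encode the chains of the peptide-loading chaperone H2-DM, Cd74, which encodes the invariant chain, and Ciita, which encodes the class II transactivator. They were followed through macrophages, monocytes, dendritic cells, B cells and tumour cells of a mouse small-cell lung cancer (SCLC), with T cells, NK cells and the free RNA of the droplets as the background. The study asked how a cytokine that engages the IL-10 and IL-2 receptors together (the IL-10/2-Trikine) reshapes tumour-infiltrating leukocytes, compared with an IL-10 receptor agonist alone (mono-IL-10) and with the Trikine plus PD-1 blockade.

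Wild-type B6129SF1/J (F1) mice carried subcutaneous tumours of KP1, a mouse SCLC line, from 500000 injected cells, and all 3 groups received 3 µg of cytokine on alternate days between day 7 and the end on day 19, as the labels give it (the study's text is not uniform on the first cytokine day). The groups were mono-IL-10 (labelled Supermono-10), IL-10/2-Trikine (labelled 10/2-Trikine), and the combination (labelled 10/2-Trikine + PD1), which added 200 µg of anti-PD-1 antibody at day 7, day 11, day 15 and day 19. The protocol text mentions the antibody without separating the groups, and the sample labels name it for the combination alone, so the groups were taken as labelled. Live CD45+ cells were sorted on day 19 and sequenced with a droplet kit that counts the 3′ ends of transcripts as unique molecular identifiers (UMIs), giving 1 library per group. No untreated library was analysed here, the labels do not give the age of the mice (the study's methods give it at purchase only), and no source used here says how many mice went into a library, so differences between libraries have no replicate error to be compared with.

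A class II molecule holds peptides from the endosomes and shows them to CD4+ T cells. The invariant chain escorts the newly made molecule and blocks its groove, lysosomal proteases cut it away, and H2-DM then exchanges its last fragment for an antigen peptide. Dendritic cells, macrophages and B cells make class II constitutively or on activation, and many other cells can be induced to make it by interferon-gamma through Ciita, a coactivator that binds no DNA itself and acts through factors sitting on short boxes upstream of each class II gene.

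The libraries held 158570946 (mono-IL-10), 197176873 (IL-10/2-Trikine) and 175794959 UMIs (combination), and 22235, 22707 and 26967 barcodes were kept as cells, at a median of 4774, 5562 and 4273 UMIs. Between 137 and 180 cell barcodes were shared by a pair of libraries. The labels call the samples mouse T cells, but T cells, as used below, made up 33.6%, 40.9% and 39.5% of the cells. Cells were clustered without the class II genes and named only from marker lists, which is why the classes are called macrophage-like and so on, and the word "like" is dropped below. Of the 12 macrophage markers 11 stood at least 1.5-fold above the other cells (Mrc1 did not), every marker listed for the other 7 classes described did so, and none was at 0. KP1 cells are not leukocytes, and the 733, 917 and 810 tumour cells used had been carried through the CD45+ sort. Barcodes that also held transcripts of another class, such as T cell receptor genes in a macrophage, were set apart. They were 24.9%, 32.7% and 19.1% of the macrophage clusters, 56.0%, 60.8% and 41.0% of the cDC2 clusters, and 26.0%, 27.2% and 28.3% of the B cell clusters, in the order mono-IL-10, IL-10/2-Trikine, combination, which is the order of all values below.

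RefSeq sequence upstream of the start sites, from the reference build GRCm38.p6, is printed for 3 members. The H2-DM beta chain paralog H2-DMb2 is printed beside them. Each stretch is 100 bases, from 130 to 31 bases before the annotated start, read 5′ to 3′ on the strand of the gene. Capitals mark 2 motifs that were chosen after these promoters had been seen: AACNGATGA, which resembles the core of the X box of class II promoters, and GATTGG, the core of the Y box. The stretches lie at chr17:34287854-34287953 (minus strand, H2-Aa), chr17:34305737-34305836 (plus, H2-Eb1), chr17:34153061-34153160 (plus, H2-DMb1) and chr17:34145119-34145218 (plus, H2-DMb2), all upstream of the genes themselves.
H2-Aa: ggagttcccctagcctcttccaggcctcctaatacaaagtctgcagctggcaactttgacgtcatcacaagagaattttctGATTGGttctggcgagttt
H2-Eb1: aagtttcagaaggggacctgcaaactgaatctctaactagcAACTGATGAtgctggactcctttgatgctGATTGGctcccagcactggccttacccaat
H2-DMb1: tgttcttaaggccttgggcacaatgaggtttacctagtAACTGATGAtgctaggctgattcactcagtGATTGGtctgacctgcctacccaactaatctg
H2-DMb2: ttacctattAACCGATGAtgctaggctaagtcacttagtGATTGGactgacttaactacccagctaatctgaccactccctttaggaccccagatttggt

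H2-Eb1, H2-DMb1 and H2-DMb2 carried both motifs, with 20 bases between them in H2-Eb1 and 21 in both H2-DM beta genes. H2-Aa carried GATTGG alone in its window, at position -49, and the promoter at the first annotated start of H2-DMa carried neither. H2-Oa, H2-Ob and H2-Eb2 were scanned as well and are not printed, and they carried GATTGG alone. Among 32851 mouse promoters of 300 bases (250 before to 50 after the start), AACNGATGA was found on the gene strand in 0.399% and on either strand in 0.648%, and GATTGG in 8.71% and 16.1%. Both motifs in this order, 15 to 30 bases apart, were found in 4 promoters, those of H2-Eb1, H2-DMb1, H2-DMb2 and BC051142, all on chromosome 17. Since the motifs were chosen from promoters already seen, the rarity of the pair elsewhere is not a test. These are matches of letters, and no binding was measured. Promoter entries were used for 4 of the 7 members; H2-Ab1 and Ciita had none, and the entry of Cd74 was not used here.

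Conventional dendritic cells held the most class II RNA and T and NK cells the least in all 3 libraries. Levels are given in CPM, the UMIs of a gene per 1000000 UMIs of a class, from the summed counts of its cells, so a cell with more RNA weighs more. The 7 members together made up 41956, 42291 and 42727 CPM in cDC1 and 39213, 38018 and 41987 CPM in cDC2, the conventional dendritic cells known for priming CD8+ and CD4+ T cells. The 95% Poisson intervals of these neighbours overlapped in the combination library and not in the others. The cDC2 cells also held C1qa, a macrophage gene, at 411, 257 and 282 CPM, against 23.5, 4.52 and 29.8 CPM in cDC1. Barcodes with C1q genes were not set apart in either class. Monocytes followed at 28731, 25236 and 28211 CPM. Mature dendritic cells, the Ccr7+ state that migrates to lymph nodes, stood at 24143, 23246 and 24449 CPM and macrophages at 23665, 18348 and 22113 CPM, and the intervals of this pair overlapped in the mono-IL-10 library alone. B cells had 17684, 14226 and 15833 CPM and plasmacytoid dendritic cells (pDC) 8422, 9577 and 10180 CPM. KP1 tumour cells were far below, at 1167, 1356 and 1537 CPM, yet above T cells at 260, 157 and 224 CPM and NK cells at 306, 145 and 281 CPM.

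**Figure D1:**
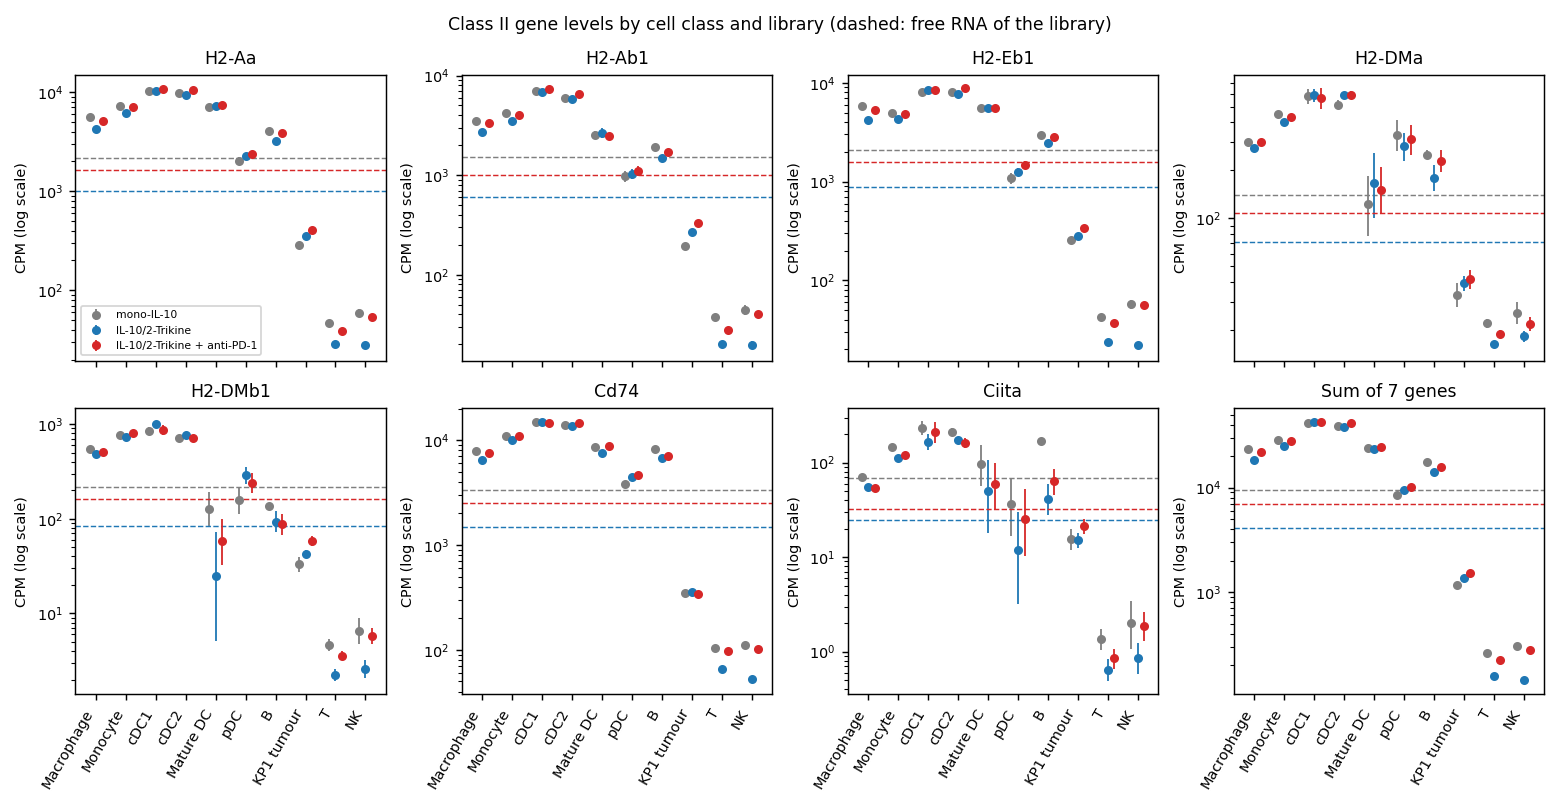
Level of each class II gene and of their sum (log axis, CPM) by cell class, with 1 point per library, exact Poisson 95% intervals as bars, and the level in the free RNA of each library (barcodes of at most 50 UMIs) as dashed lines. The conventional dendritic cells sit highest, at 38018 to 42727 CPM for the sum, and T cells at 157 to 260 CPM.

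H2-Aa, the alpha chain of I-A, was at 10319, 10188 and 10731 CPM in cDC1 and at 9868, 9418 and 10517 CPM in cDC2. It was at 7157, 6136 and 7037 CPM in monocytes, 5564, 4203 and 5091 CPM in macrophages and 4082, 3218 and 3857 CPM in B cells. Tumour cells had 283, 351 and 402 CPM of H2-Aa and T cells 47.3, 28.6 and 39.0 CPM. The IL-10/2-Trikine library was thus the lowest of the 3 in cDC1, cDC2, macrophages, monocytes, B cells and T cells, and the middle one in tumour cells and pDC. In cDC1 the lowest pair lay within each other's intervals.

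H2-Ab1, the I-A beta chain, kept to this order of classes, with 6942, 6898 and 7261 CPM in cDC1, 3472, 2735 and 3332 CPM in macrophages and 196, 266 and 333 CPM in tumour cells. H2-Eb1, the I-E beta chain, reached 8057, 7629 and 8819 CPM in cDC2 and 5834, 4171 and 5294 CPM in macrophages. Its partner H2-Ea, the I-E alpha chain, held 3, 0 and 2 UMIs in macrophages and 0 in monocytes, cDC2 and tumour cells in every library. The b haplotype of the class II region is known for a deletion that silences H2-Ea, and H2-Eb1 was detected in the same cells. With so little H2-Ea RNA and no protein measured, H2-Eb1 RNA was not read as I-E at the surface.

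Cd74 was at 14887, 14967 and 14559 CPM in cDC1, 10969, 10047 and 10995 CPM in monocytes, 7878, 6424 and 7532 CPM in macrophages and 8181, 6771 and 7054 CPM in B cells. In tumour cells it differed little between libraries, at 349, 359 and 339 CPM. The chaperone genes followed another pattern among the dendritic cells. H2-DMa was at 579, 587 and 566 CPM in cDC1 but at 123, 165 and 151 CPM in mature dendritic cells. H2-DMb1 was at 848, 1000 and 861 CPM in cDC1 and at 128, 24.8 and 58.8 CPM in mature dendritic cells, from 24, 3 and 14 UMIs, while H2-Aa in the same cells was at 7095, 7239.5 and 7356 CPM. The mature dendritic cells were 41, 33 and 45 cells, after 14.6%, 44.1% and 6.25% had been set apart as mixed.

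Ciita was counted at low levels throughout. It was at 234, 166 and 212 CPM in cDC1, 212, 172 and 162 CPM in cDC2, 146, 111 and 120 CPM in monocytes and 69.7, 55.1 and 54.2 CPM in macrophages. B cells of the mono-IL-10 library held 169 CPM of Ciita against 41.6 and 63.2 CPM in the other libraries. In tumour cells Ciita was at 15.6, 15.0 and 21.3 CPM, from 62 UMIs in the mono-IL-10 library, and in T cells at 1.34, 0.645 and 0.847 CPM.

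Ratios between members, which do not depend on the total of a class, separated the classes further. Capture differs between genes, so a ratio is compared across classes and not read as an amount. For each UMI of H2-Aa, macrophages held 1.05, 0.992 and 1.04 UMIs of H2-Eb1, and monocytes 0.698, 0.697 and 0.680. The 95% counting intervals of the macrophage and monocyte ratios did not overlap in any library, the widest being 0.978 to 1.01 in the macrophages of the IL-10/2-Trikine library. B cells held 2.00, 2.10 and 1.83 UMIs of Cd74 for each of H2-Aa, against 1.42, 1.53 and 1.48 in macrophages. The tumour cells held 1.23, 1.02 and 0.844, which in the combination library was below every other class, and mature dendritic cells 1.21, 1.05 and 1.19.

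H2-DMb1 outnumbered H2-DMa in macrophages (1.82, 1.78 and 1.71) and monocytes (1.73, 1.85 and 1.85), and was below it in B cells (0.539, 0.521 and 0.385). In B cells the paralog H2-DMb2 was high instead, at 515, 432 and 491 CPM, against 9.87, 14.5 and 16.1 CPM in monocytes and 53.1, 50.4 and 49.3 CPM in macrophages. Dendritic cells lay between, with H2-DMb2 at 234, 273 and 293 CPM in cDC2 and 130, 157 and 192 CPM in cDC1. In mature dendritic cells it was at 160, 215 and 160 CPM, above H2-DMb1 in each library. H2-DMb1 and H2-DMb2 are neighbouring, closely similar genes, and reads that match both could be split or dropped by the counting, so the division between them is uncertain. T cells showed a different mixture again: for each UMI of H2-Aa they held 0.464, 0.569 and 0.486 UMIs of H2-DMa, and macrophages 0.0540, 0.0651 and 0.0588. H2-DMa in T cells stood at 21.9, 16.3 and 18.9 CPM, from 995, 1388 and 1476 UMIs, and H2-DMb1 at 4.65, 2.23 and 3.59 CPM. NK cells shared this mixture, with H2-DMa at 25.6, 18.2 and 21.9 CPM.

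**Figure D2:**
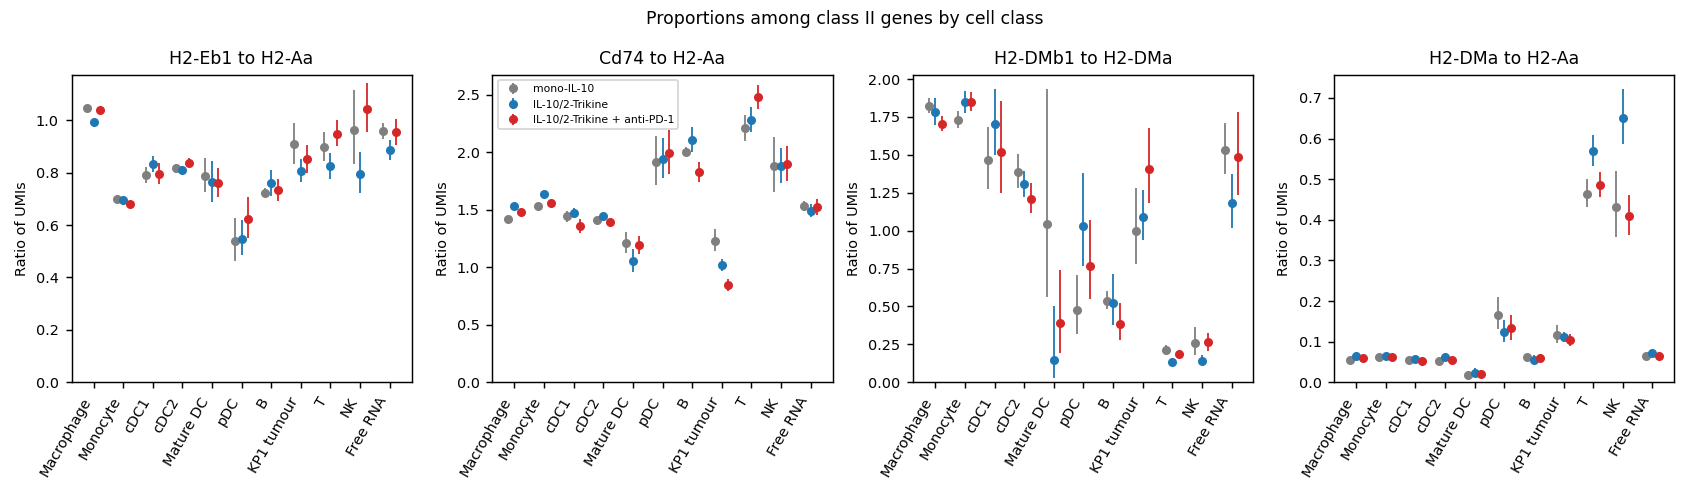
Ratio of summed UMIs between pairs of class II genes (linear axis from 0) by cell class, with free RNA as the last class (barcodes of at most 50 UMIs), 1 point per library, with 95% counting intervals. Macrophages sit above monocytes for H2-Eb1 to H2-Aa (0.992 to 1.05 against 0.680 to 0.698), and T and NK cells stand apart for H2-DMa to H2-Aa.

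Free RNA, read from nearly empty droplets, carried class II transcripts in every library. Barcodes with at most 50 UMIs numbered 1074181, 1259630 and 1094542 and held the 7 members at 9554, 4150 and 7045 CPM. That is a log2 ratio of -1.20 (IL-10/2-Trikine over mono-IL-10) and 0.76 (combination over IL-10/2-Trikine). Macrophages, without the mixed barcodes set apart, were 19.0%, 8.39% and 18.0% of all cells kept. With mixed barcodes included the macrophage clusters held 5630, 2832 and 6017 cells. For each UMI of H2-Aa the barcodes of at most 50 UMIs held 0.958, 0.886 and 0.955 of H2-Eb1, below the 0.992 to 1.05 of macrophages and above the 0.680 to 0.698 of monocytes. Ciita to H2-Aa was 0.0312, 0.0249 and 0.0198 in free RNA, against 0.0107 to 0.0131 in macrophages and 0.0171 to 0.0205 in monocytes. As a measure of how much free RNA a cell class took up, the summed level of 5 myeloid genes (C1qa, C1qb, C1qc, Lyz2 and Apoe) in that class was divided by their level in the free RNA, and the members were set against the same share. Lyz2 stood at 56.5 CPM in macrophages, 6002 CPM in monocytes and 1922 CPM in neutrophils of the mono-IL-10 library, so the share was also computed without it, a choice made after seeing the data. In macrophages the same was done with 5 T cell genes (Cd3d, Cd3e, Cd3g, Trac and Trbc2), which stood at 2.07%, 2.36% and 3.05% of their free level. Macrophage barcodes with T cell genes had been set apart before, which holds that share low, so no multiple was read from it.

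In T cells the myeloid genes stood at 1.91%, 1.72% and 1.80% of their free level, and the summed members at 1.43, 2.199 and 1.77 times what that share gives. H2-DMa was the exception, at 8.17, 13.3 and 9.73 times in T cells and 9.71, 15.2 and 9.94 times in NK cells, while the other 6 members in T cells lay between 1.04 and 2.55 times. In tumour cells the summed members were 3.35, 4.03 and 6.69 times the level at that share. B cells were at 21.3, 6.88 and 16.0 times and pDC at 13.1, 4.79 and 14.7 times, with the myeloid genes at up to 49.8% and 48.2% of their free level in the IL-10/2-Trikine library.

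Without Lyz2 in the reference the summed members were at 1.45, 2.31 and 1.77 times in T cells and H2-DMa at 8.30, 13.95 and 9.79 times, so both changed little. Tumour cells were then at 4.76, 9.88 and 8.15 times, B cells at 33.4, 9.35 and 16.7 times and pDC at 12.5, 16.3 and 23.9 times. In B cells Apoe alone stood at 62.05%, 595% and 199.9% of its free level and the C1q genes between 1.31% and 3.53%, so the share rests on the genes chosen there, and barcodes with C1q UMIs had been set apart in T, NK, tumour and B cells and pDC, which holds the share low.

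With those barcodes kept, also an alternative chosen after seeing the data, the summed members were at 1.33, 1.89 and 1.68 times in T cells and H2-DMa at 7.35, 10.7 and 9.09 times. Tumour cells were then at 1.51, 2.14 and 2.13 times, B cells at 2.67, 4.92 and 4.34 times and pDC at 1.85, 3.01 and 8.34 times, with the myeloid genes at 16.2%, 17.4% and 12.9% of their free level in tumour cells. The multiples of tumour cells, B cells and pDC thus depend on whether the mixed barcodes are kept, and no size is read from them. With the mixed barcodes set apart, neutrophils were at 0.820, 1.15 and 0.420 times with Lyz2 and at 4.87, 21.97 and 3.32 times without it. Neutrophils transcribe Lyz2 themselves, so the reference that holds it does not measure free RNA in them.

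The share of cells with a UMI of any member was compared after thinning each cell to 1000 UMIs. In macrophages it was 98.4% (95% Clopper-Pearson interval 97.9 to 98.7), 93.7% (92.4 to 94.8) and 97.4% (96.9 to 97.9). In tumour cells it was 44.6% (39.7 to 49.7), 45.4% (41.7 to 49.1) and 54.3% (50.04 to 58.4), with 341, 203 and 246 shallower cells left out. Before thinning, 67.0%, 72.0% and 75.6% of tumour cells had a UMI, at median depths of 1159, 8819 and 2258.5 UMIs. In T cells, which should lack class II in the mouse, the thinned share was 24.0%, 13.2% and 20.99%, and before thinning 69.0%, 53.7% and 65.8% at median depths of 4159, 5583 and 4469 UMIs. The tumour share was thus above the T cell share in each library, by more than the counting intervals, and the T cell shares stood in the same order of libraries as the free level.

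Of the 3 tumour clusters, the deepest, with median depths of 17149, 14496 and 15002 UMIs, held the members at 1204, 1365 and 1600 CPM. Its 5 myeloid genes were at 114, 109 and 72.2 CPM and its T cell receptor and CD3 genes at 27.6, 39.9 and 56.5 CPM. A smaller cluster reached 5383 CPM in 25 cells of the IL-10/2-Trikine library, against 768 and 1246 CPM in the other libraries. The shallow cluster held 1091, 880 and 1209 CPM. Per cell, the members made up a median of 0.0434%, 0.0381% and 0.0790% of the UMIs of a tumour cell, and 1.36%, 0.436% and 0.617% of tumour cells gave them over 1% of their UMIs.

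Adding the IL-2 arm to the IL-10 agonist was addressed by setting the IL-10/2-Trikine library over the mono-IL-10 library. In macrophages all 7 members were lower in the IL-10/2-Trikine library, and each counting interval of the log2 ratio lay below 0. H2-Eb1 was at 5834 CPM in the mono-IL-10 library and 4171 CPM in the IL-10/2-Trikine library, a log2 ratio of -0.48 (95% counting interval -0.50 to -0.47). H2-Aa stood at -0.40, Ciita and H2-Ab1 at -0.34, Cd74 at -0.29, H2-DMb1 at -0.17 and H2-DMa at -0.13. The classical chains were thus further apart between the libraries than the chaperone chains. The sum was at -0.37 (-0.37 to -0.36), and -0.41 relative to the median gene of macrophages.

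None of the 7 macrophage ratios passed 1.5-fold, the limit used here to count a gene as higher or lower (with at least 20 UMIs in the pair), while 12.2% of the 13182 macrophage genes did, in either direction. Monocytes gave the same sign: all 7 were lower, from -0.40 for Ciita to -0.07 for H2-DMb1, with the sum at -0.19 and 0 past the limit against 13.1% of genes. With the mixed barcodes kept, the macrophage sum was at -0.54 and H2-Eb1 passed the limit at -0.66, against 17.4% of genes under that setting. Both libraries are single, so these differences describe the libraries and not the treatments.

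Conventional dendritic cells gave values near 0. The sum was at 0.01 (-0.01 to 0.04) in cDC1 and at -0.04 (-0.06 to -0.03) in cDC2, with 0 of 7 past the limit against 21.7% and 18.1% of genes. Ciita was the lowest member in both, at -0.50 (-0.87 to -0.13) and -0.30 (-0.49 to -0.10). With mixed barcodes kept, the cDC2 sum was at -0.54. In mature dendritic cells 2 members passed the limit, H2-DMb1 at -2.37 (-4.75 to -0.65, 27 UMIs) and Ciita at -0.96 (-2.58 to 0.44, 24 UMIs), against 32.1% of genes. The paralog H2-DMb2, whose division from H2-DMb1 is uncertain, was at 160 and 215 CPM there, from 30 and 26 UMIs. In pDC 1 passed, H2-DMb1 at 0.87 (0.32 to 1.45), against 37.8%, and Ciita held 13 UMIs and was not counted, so that 6 members were. The pDC of the mono-IL-10 library were shallow, at a median of 733 UMIs against 4926 and 5156.

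In B cells Ciita was lower in the IL-10/2-Trikine library, at 41.6 against 169 CPM (log2 ratio -2.02, -2.63 to -1.48), and was the 1 member past the limit, against 48.5% of genes. The other 6 lay between -0.53 and -0.27 and the sum at -0.31, but the median gene of the B cells was itself at -0.39, so that the sum was at 0.07 relative to it and Ciita at -1.64. The B cells were not alike in the libraries: those of mono-IL-10 fell into a deep cluster of 654 cells and a shallow one of 508 cells (median 577 UMIs), and the IL-10/2-Trikine library had 126 cells, all in the deep one. Within the deep cluster the sum was at 19332, 14226 and 16433 CPM and Ciita at 154, 41.6 and 60.3 CPM. Tumour cells went the other way, with the sum at 0.22 (0.17 to 0.27), H2-Ab1 at 0.44 (0.32 to 0.56) and Cd74 at 0.04 (-0.05 to 0.13), and with 0 past the limit against 13.7% of genes. With mixed barcodes kept the tumour sum turned to -0.60.

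**Figure D3:**
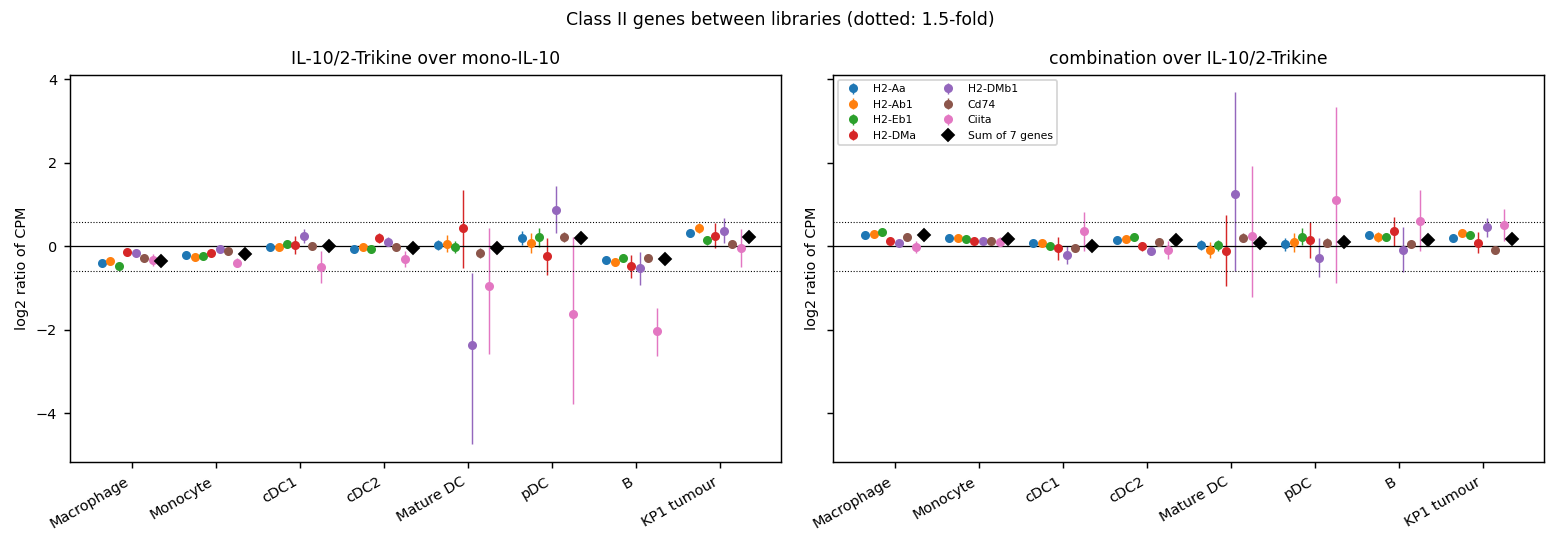
Log2 ratio of CPM for each class II gene and their sum by cell class, IL-10/2-Trikine over mono-IL-10 on the left and combination over IL-10/2-Trikine on the right, with 95% counting intervals and dotted lines at 1.5-fold. Macrophage and monocyte members lie below 0 on the left (sums -0.37 and -0.19) and their sums lie above 0 on the right (0.27 and 0.16), and no member of either passes 1.5-fold.

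The addition of PD-1 blockade was addressed by setting the combination library over the IL-10/2-Trikine library. This comparison shares the IL-10/2-Trikine library with the one above, so opposite signs in both are not independent. In macrophages 6 members were higher in the combination library, led by H2-Eb1 at 0.34 (0.33 to 0.36), from 4171 to 5294 CPM. H2-Ab1 was at 0.29, H2-Aa at 0.28 and Cd74 at 0.23, and the chaperone chains were the lowest of these 6, at 0.13 (H2-DMa) and 0.07 (H2-DMb1). Ciita was at -0.02 (-0.17 to 0.13), so its interval held 0.

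The macrophage sum was at 0.27 (0.26 to 0.28), with 0 past the limit against 9.19% of 13077 genes. In monocytes the sum was at 0.16 and the members between 0.11 (Ciita, whose interval held 0) and 0.20 (H2-Aa), with 0 past the limit against 9.99%. The sums were at 0.01 in cDC1 and 0.14 in cDC2, 0.07 in mature dendritic cells, 0.09 in pDC, 0.15 in B cells and 0.18 in tumour cells (the sign in cDC1, pDC and B cells changed under some alternatives), and the genes past the limit in either direction were 23.8%, 16.8%, 29%, 21.9%, 31.4% and 11.1%. No member passed it in cDC1, cDC2, mature dendritic cells, pDC (6 members with enough UMIs in each of the last pair) or tumour cells, and 1 did in B cells, Ciita at 0.61 (-0.11 to 1.35, 71 UMIs). In tumour cells Ciita was at 0.50 (0.12 to 0.88), H2-DMb1 at 0.45 and H2-Ab1 at 0.33, while Cd74 was at -0.08. With mixed barcodes kept, the macrophage sum was at 0.54 and the cDC2 sum at 0.70, with 6 members of cDC2 past the limit against 19.6% of genes under that setting. More members then also passed it in mature dendritic cells and B cells, against 45.2% and 29.8% of genes. Over all alternatives the sum in mature dendritic cells lay between 0.03 and 0.95.

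Within a class the members varied widely from cell to cell. The 7 members together made up a median of 1.94%, 1.30% and 1.53% of the UMIs of a macrophage, and between the cell at the 5th and the cell at the 95th percentile they went from 0.171% to 5.94%, from 0% to 5.33% and from 0% to 5.83%. The median monocyte held 2.92%, 2.62% and 2.79%, and the median cDC2 3.98%, 3.92% and 4.37%, with 5th percentiles of 1.70%, 1.88% and 1.74%. A shallow macrophage cluster, at a median of 418 UMIs, held 466, 400 and 1149 barcodes before mixed ones were set apart. Thinning to 1000 UMIs kept 3852, 1656 and 4007 of the 4227, 1905 and 4867 macrophages. Their medians were then 2.00%, 1.40% and 1.80%, and their 5th percentiles 0.2%, 0% and 0.1%. In B cells the raw medians of 1.42%, 1.92% and 1.71% became 2.00%, 1.90% and 2.00% after thinning, which also leaves out cells under 1000 UMIs, among them much of the shallow mono-IL-10 cluster. The summed levels within the deep B cell cluster, given above, still differed between the libraries.

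**Figure D4:**
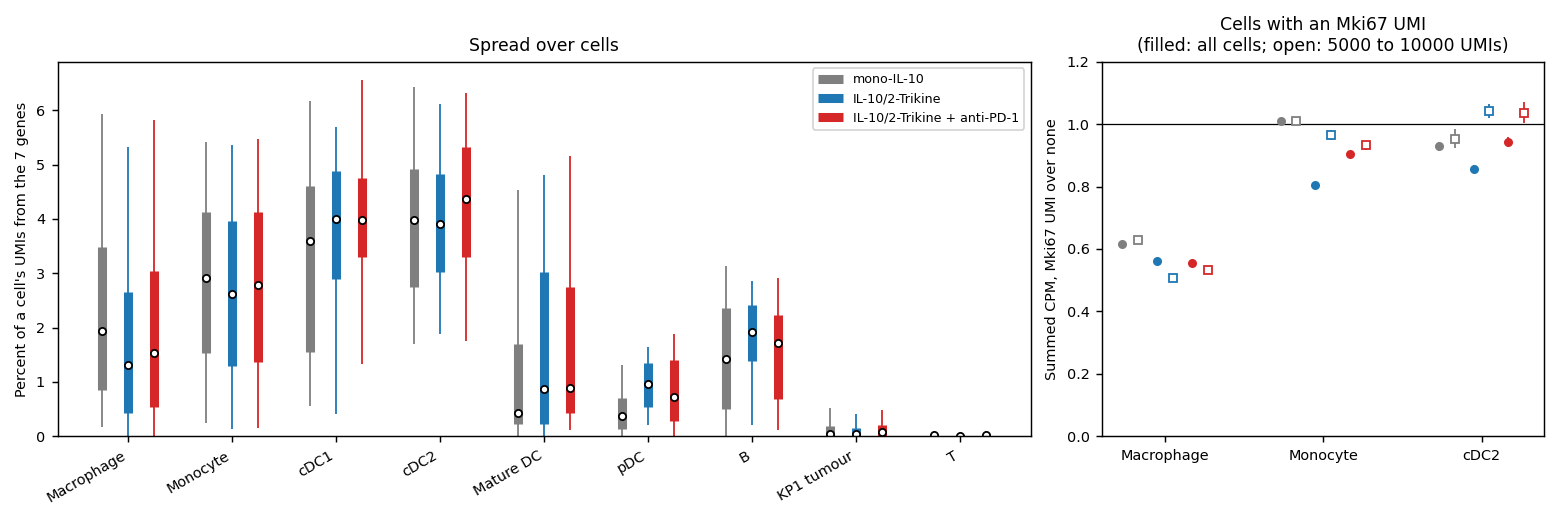
Left, percent of each cell's UMIs from the 7 class II genes by class and library, with the median as a circle, the 25th to 75th percentile as a thick bar and the 5th to 95th as a thin line; right, summed CPM of cells with an Mki67 UMI over that of cells without, for all cells (filled) and for cells of 5000 to 10000 UMIs (open), with 95% counting intervals. Macrophages spread from 0.171% to 5.94% in the mono-IL-10 library, and tumour cells have medians of 0.0381% to 0.0790%. On the right macrophages lie between 0.508 and 0.630.

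Macrophages with a UMI of Mki67, a marker of cycling cells, had lower class II levels than those without. In the largest macrophage cluster, led by Cxcl13 and the C1q genes, the members stood at 17160, 12258 and 14564 CPM in cells with an Mki67 UMI and at 28047, 22480 and 26720 CPM in the rest, ratios of 0.612, 0.545 and 0.545. The cells with the UMI were also deeper, at medians of 8361, 6020 and 6506 UMIs against 6116, 4488 and 4850. Among cells of 5000 to 10000 UMIs the ratios were 0.618, 0.486 and 0.520. Cd74 had ratios of 0.571, 0.507 and 0.508 over all depths of this cluster and H2-DMb1 0.795, 0.729 and 0.751. In monocytes the ratio of the sum was 1.01, 0.804 and 0.904, and in cDC2 0.928, 0.858 and 0.943.

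Cells with an Mki67 UMI were 29.3%, 32.5% and 26.1% of the macrophages, and at 5000 to 10000 UMIs 28.0%, 47.0% and 37.7%. How many of the Mki67 UMIs came from free RNA was not tested. Among macrophages of the largest cluster with no Mki67 UMI, the libraries still stood in the same order, at 28047, 22480 and 26720 CPM. A small macrophage cluster with Mmp12, Vcam1, Ccl8 and Mertk among its leading genes had the highest class II level of the macrophages, at 28243, 30360 and 35453 CPM in 47, 43 and 80 cells. Its Ciita was at 224, 253 and 214 CPM, against 234, 166 and 212 CPM in cDC1, and for the sum the lowest of its 3 libraries was mono-IL-10.

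The other genes of the class II pathway were counted in macrophages, monocytes, cDC1 and cDC2. Among the proteases, Ctss, which makes the last cuts in the invariant chain, was at 4749, 4328 and 4523 CPM in macrophages and at 977, 962 and 917 CPM in cDC1. Ctsl, Ctsb and Lgmn were likewise far lower in cDC1 than in macrophages (Lgmn at 35.3, 27.1 and 79.5 CPM against 882, 866 and 930 CPM), whereas Ifi30, the lysosomal thiol reductase, was higher in cDC2 (1256, 1440 and 1438 CPM) than in macrophages (477, 475 and 457 CPM). In macrophages and monocytes 0 of 6 protease genes passed the limit in either comparison. In cDC2 2 of 6 were lower in IL-10/2-Trikine over mono-IL-10, against 12.1% of all genes lower there. They were Lgmn at -0.91 (1087 UMIs) and Ctsl at -0.71 (800 UMIs). From mono-IL-10 to IL-10/2-Trikine, C1qa in these cDC2 cells went from 411 to 257 CPM and Apoe from 83.2 to 18.2 CPM, while Lyz2 went from 1980 to 2208 CPM. The part of macrophage RNA in the 2 protease ratios was not tested. In cDC1 2 of the 4 with enough UMIs were higher in the combination over IL-10/2-Trikine, against 9.51% of all genes higher there. These were Lgmn at 1.55 (42 UMIs) and Ctsb at 0.59 (192 UMIs). H2-Ob, a chain of the H2-O molecule that restrains H2-DM, was highest in B cells at 320, 192 and 231 CPM, and H2-Oa there was at 185, 77.2 and 138 CPM. In macrophages H2-Oa (-0.61) and H2-Eb2 (-0.59, 51 UMIs) passed the limit in IL-10/2-Trikine over mono-IL-10, against 12.2% of genes. The interval of H2-Eb2 held 0. In monocytes H2-Ob was at 0.68, and at -0.64 in the combination over IL-10/2-Trikine, against 13.1% and 9.99%. In cDC2 H2-Eb2 was at -1.13 and then 0.92, and H2-Oa then at 0.63, against 18.1% and 16.8%. Other accessory genes, H2-DMb2 among them, did not pass it there or in cDC1 with enough UMIs.

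Among the promoter-bound factors, Rfx5, Rfxap and Rfxank were low, with Rfx5 at 15.9, 14.6 and 13.9 CPM in macrophages and Rfxap at 39.2, 44.8 and 40.3 CPM in tumour cells, above its 27.3, 24.98 and 27.6 CPM in macrophages. In macrophages 0 of the 11 regulators passed the limit in either comparison, against 12.2% and 9.19% of genes. In monocytes Irf1, which drives Ciita after interferon-gamma, was at 559, 964 and 997 CPM. It was the 1 of 11 regulators past the limit in IL-10/2-Trikine over mono-IL-10, against 13.1% of genes. This count did not stand above that share. Marchf1, the ubiquitin ligase that removes class II from the surface, was at 239, 172 and 166 CPM in monocytes and 236, 134 and 106 CPM in cDC2. In IL-10/2-Trikine over mono-IL-10 it passed the limit in cDC2 (log2 ratio -0.82) and in cDC1 (-0.69, from 409 to 253 CPM). The shares of all genes there were 18.1% and 21.7%. Irf8, a factor of the dendritic lineage, was at 259, 134 and 270 CPM in cDC2. It passed the limit in both comparisons there, against 18.1% and 16.8% of genes. The cDC2 cells were drawn unevenly from their clusters: before mixed barcodes were set apart, the largest held 42, 242 and 53 cells. Of 3 costimulatory genes, Cd80 passed the limit in macrophages (4.27 CPM with mono-IL-10 and 8.73 CPM with IL-10/2-Trikine, log2 ratio 1.03), against 12.2% of genes. Cd40 passed it in cDC2 (113, 75.1 and 127 CPM, log2 ratios -0.59, just past the limit, and 0.75), against 18.1% and 16.8% of genes. In cDC1 both passed it in both comparisons, Cd40 at 21.9, 49.7 and 23.2 CPM (1.18 and -1.10) and Cd80 at 42.0, 73.8 and 39.7 CPM (0.81 and -0.89), from 40 to 74 UMIs in a pair, against 21.7% and 23.8% of genes. In the combination over IL-10/2-Trikine the intervals of both cDC1 ratios held 0.

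A list of 20 genes known to be induced by interferon-gamma, outside class I and class II, was set beside the members, and shares Irf1 with the regulator list. In monocytes 13 of the 19 with enough UMIs were higher by over 1.5-fold than in the IL-10/2-Trikine library, at a median log2 ratio of 0.75, against 5.19% of all genes and 0 of the 7 members. Iigp1, a GTPase that attacks vacuoles of parasites, went from 307 to 736 CPM (1.26), Cxcl9, a chemokine for CXCR3+ T cells, from 373 to 765 CPM (1.04), and Gbp2 from 359 to 702 CPM (0.97). In the same monocytes the members had a median of 0.13. In macrophages 5 of 20 were higher (median 0.49, against 5.37% of genes), in cDC1 7 of 13 with 1 lower (median 0.77, against 9.51%) and in cDC2 9 of 18 (median 0.57, against 6.87%), and the members had medians of 0.23, 0.01 and 0.10. Of the 10 genes of MHC class I presentation, 0 passed in macrophages, monocytes and cDC1 and 1 in cDC2, Tap2 at 0.62, with a median of 0.26 in monocytes. In IL-10/2-Trikine over mono-IL-10 the interferon-gamma list had medians of 0.03 in macrophages, 0.08 in monocytes, -0.12 in cDC1 and -0.24 in cDC2, over genes that went both ways. In monocytes 3 of 19 were higher past the limit (Socs1 at 1.57, Irgm2 at 1.07 and Irf1 at 0.79) and 2 lower (Nos2 at -1.19 and Cxcl9 at -0.74), against 13.1% of genes in either direction. In cDC1 3 of 12 were higher, among them Cxcl10 at 4.59 (28 UMIs) and Cxcl9 at 0.93, and 4 lower, among them Irgm1 at -0.78, against 21.7% of genes in either direction. In cDC2 2 of 18 were higher (Socs1 at 1.198 and Cxcl10 at 0.70) and 1 lower (Ly6a at -0.70), against 18.1% of genes, and in macrophages 1 of 20 was higher, Nos2 at 1.97 (34 UMIs), against 12.2%, so neither count stood above the share of all genes.

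**Figure D5:**
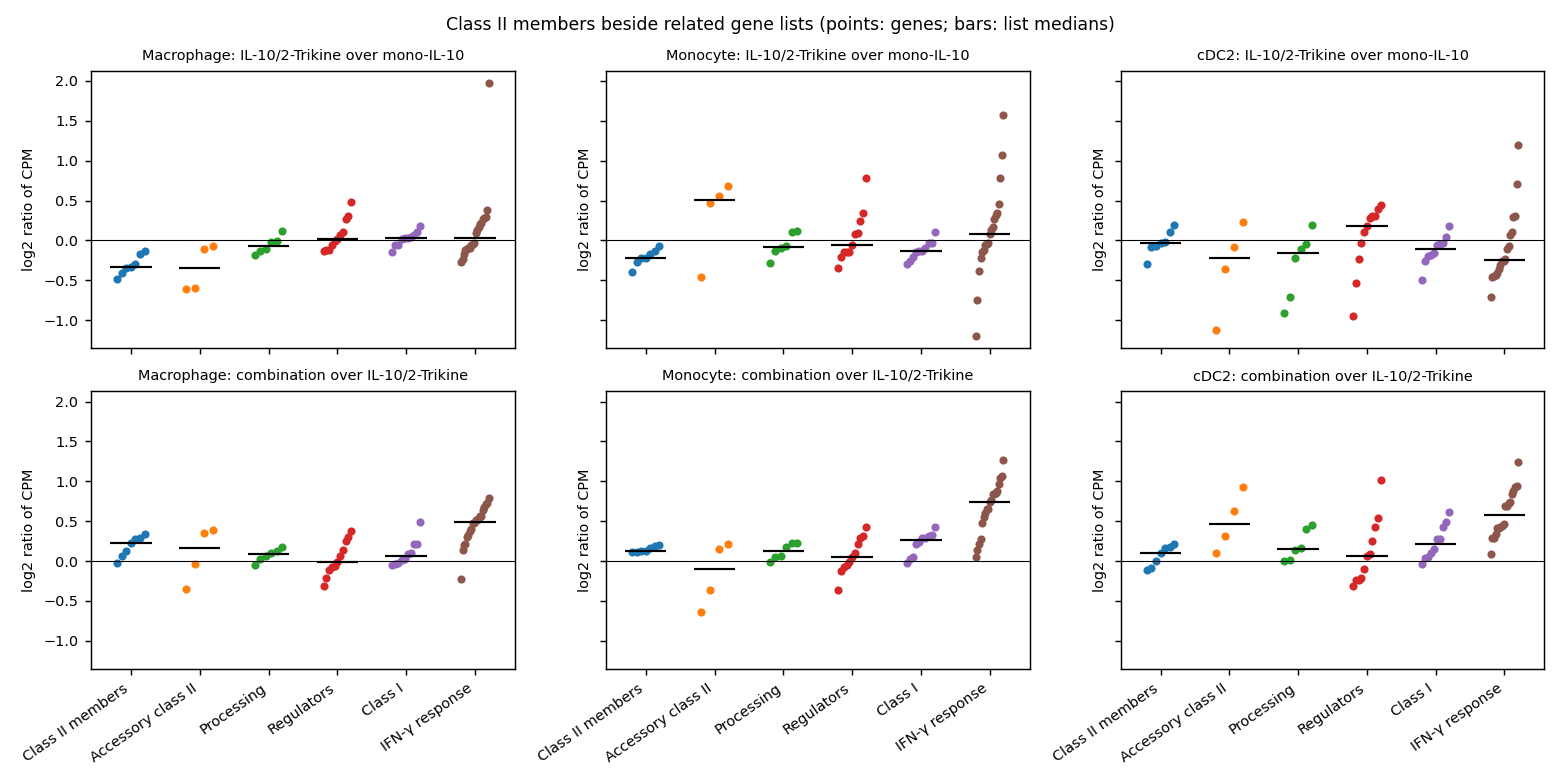
Log2 ratio of CPM of single genes (points) and list medians (bars) for the 7 class II members and 5 related lists in macrophages, monocytes and cDC2, with IL-10/2-Trikine over mono-IL-10 above and the combination over IL-10/2-Trikine below. In the lower panels the interferon-gamma response list has medians of 0.49, 0.75 and 0.57 and the members 0.23, 0.13 and 0.10.

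Across 30 points, each a cell class of at least 50 cells in 1 library, the genes outside these lists whose log2 level was most like the mean of H2-Aa, H2-Ab1, H2-Eb1 and Cd74 were Rassf4 (Pearson r 0.9496), BC028528 (0.937), Gm6377 (0.932), Nuak2 (0.931) and Lmo2 (0.929), among 7511 genes ranked, followed by 5031439G07Rik, Plekho1, Ifngr2, Amz1 and Fgd2 (0.917 to 0.899). Points share libraries and depth, so r is a description. H2-DMa and H2-DMb1 had 0.971 each, and Ciita 0.931, below Rassf4. Ifngr2, which encodes a chain of the interferon-gamma receptor, had 0.908, and Ifi30 0.918. Rassf4 was at 215 CPM in macrophages, 188 CPM in monocytes and 1.98 CPM in T cells of the mono-IL-10 library.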

How the data were processed

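UMI counts per gene and barcode, deposited by the authors as unfiltered matrices, were made with Cell Ranger (8.0.0 in the matrix header). The submitters' notes name mm10 and the study's methods another build, so no coordinates were taken from the files. Cells were barcodes of 200 genes or more whose mitochondrial share did not pass 20%, and they were normalised and clustered across the 3 libraries without class II genes (scanpy 1.11.5, 2000 variable genes, 30 components, 20 neighbours, Leiden resolution 1, seed 1). Clusters were named from marker lists when at least 3 markers led them, and the dendritic clusters were divided again in the same way.

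Barcodes with at least 3 UMIs and 0.05% of UMIs from T cell genes (outside T cells, NK cells and ILC2) or from C1q genes (outside macrophages, monocytes and dendritic cells other than pDC) were set apart, a rule set after the clusters had been seen. Scrublet's automatic threshold called 2782 barcodes in the mono-IL-10 library and 0 in the others, so as an alternative the 10% of barcodes with the highest scores were removed. UMIs were summed per class and library and divided by the summed UMIs of the class. Intervals are exact 95% intervals (Poisson, Clopper-Pearson, conditional binomial) and cover counting error only; with 1 library per group no test was possible. A gene was counted as higher or lower past 1.5-fold with at least 20 UMIs in the pair. Free RNA was read from barcodes of at most 50 UMIs, with 5 myeloid genes as the reference, or 5 T cell genes in macrophages, monocytes and dendritic cells other than pDC.

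Named genes were the 7 members, all genes of the related lists, and the 10 other genes most like the members across classes. The members and lists were chosen with earlier results of these data known. Alternatives covered scaling by TMM (edgeR 4.0.16) and by the median of ratios as in DESeq2 1.42.0, other clusterings, depths, fold limits and free-RNA limits. The calculations were tested on simulated data. Tools were Python 3.11.15, numpy 2.4.6, scipy 1.17.1, pandas 2.3.3 and R 4.3.3.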

Additional observations from a re-analysis of the deposited data

Results flagged for a closer look

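In both comparisons the summed members lay past 1.5-fold in opposite directions in different cell classes, which gives 5 values. The difference between the classes was not tested, since each group is 1 library. In IL-10/2-Trikine over mono-IL-10 the log2 ratio was -0.73 in T cells and -1.08 in NK cells, beside -1.20 in the free RNA of the same pair, and 1.13 in ILC2 cells, of which there were 33 and 89. In the combination over IL-10/2-Trikine it was 0.96 in NK cells, beside 0.76 in the free RNA, and -2.38 in neutrophils. Of all genes, 21.5% in T cells and 19.3% in NK cells were lower past the limit in the first comparison, and 13.5% in ILC2 cells higher. In the second, 10.2% of all genes were higher past it in NK cells and 18.7% lower in neutrophils. There were 565 neutrophils with the Trikine alone and 112 with PD-1 blockade added. The members passed 1% of a cell's UMIs in 9.73% of the former and 0% of the latter. The median neutrophil held 0% and 0.0146%, so the lower sum does not describe the typical neutrophil. The part of free RNA in the 5 log2 ratios was not tested.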

How the results depend on the processing

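Each group is 1 library, so differences between mice cannot be told apart from differences between treatments, and intervals cover counting error alone. The summed log2 ratio of IL-10/2-Trikine over mono-IL-10 stayed below 0 in 13 of 13 alternatives in macrophages (-0.54 to -0.29) and 12 of 12 in monocytes (-0.40 to -0.10), but was below 0 in 8 and above in 4 in B cells (-0.82 to 0.39), and below 0 in 2 and above in 11 in tumour cells (-0.60 to 0.39), and both signs also occurred in cDC1, cDC2, mature dendritic cells and pDC. The combination over IL-10/2-Trikine stayed above 0 in 13 of 13 in macrophages (0.18 to 0.54) and in tumour cells (0.12 to 0.53) and 12 of 12 in monocytes (0.06 to 0.35), but was below 0 in 5 and above in 7 in B cells (-0.49 to 0.58), below in 3 and above in 9 in pDC (-0.48 to 0.11), and below in 1 and above in 9 in cDC1 (-0.26 to 0.25). Alternatives chosen after seeing the data were keeping mixed barcodes, cells of at least 1000 UMIs, the largest macrophage cluster, the deepest tumour cluster, and, for the free-RNA share, Lyz2 left out or mixed barcodes kept. With mixed barcodes kept, the members past the limit in IL-10/2-Trikine over mono-IL-10 became 1 in macrophages, cDC1 and cDC2, 5 in mature dendritic cells, 7 in B cells and 2 in tumour cells, and in the combination over IL-10/2-Trikine 1 in macrophages and tumour cells, 6 in cDC2, and 5 in mature dendritic cells and B cells. The shares of all genes past the limit were then, in the first comparison, 17.4%, 17.2%, 23.7%, 37.0%, 40.4% and 16.5% in those classes, and in the second 17.5%, 14.6%, 19.6%, 45.2% and 29.8%. For the other alternatives that share was computed for the 2-fold limit only (12.6% in mature dendritic cells and 15.1% in pDC), and their counts are not read as results about the members. In the first comparison the 2-fold limit left 1 in mature dendritic cells and 0 in pDC, subtracting free RNA gave 5 in pDC and 1 in tumour cells, weighting cells equally gave 6 in pDC, removing doublets gave 2 in B cells, and leaving out cells with an Mki67 UMI gave 2 in B cells and 1 in tumour cells. In the second, a marker gate per cell gave 2 in mature dendritic cells and tumour cells and 0 in B cells, equal weights gave 1 in mature dendritic cells, pDC and tumour cells, subtracting free RNA 1 in pDC, leaving out Mki67 cells 1 in tumour cells and 0 in B cells, and the deepest tumour cluster 1. B cells there had 0 with cells of at least 1000 UMIs, TMM, median of ratios or the 2-fold limit; both scalings move the median B cell gene (by 0.38 and 0.39, then -0.20 and -0.19). The share of cells with any member, thinned to 500 UMIs, was 95.9%, 89.8% and 92.9% in macrophages and 30.4%, 31.8% and 38.8% in tumour cells; without thinning it was 93.6% in macrophages of the combination and 67.0%, 72.0% and 75.6% in tumour cells. The free level of the summed members was 10538, 4438 and 7285 CPM at a limit of 20 UMIs and 8967, 4086 and 5973 CPM at 100. Some alternative clusterings left no cDC1 or mature dendritic class and gave no value. The cause was not tested. No paired analysis was possible because each group has 1 library.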
